A study of Homo sapiens with 21 samples.

Results

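The aldo-keto reductases of family 1 described here are the 6 genes AKR1A1, AKR1B1, AKR1B10, AKR1C1, AKR1C2 and AKR1C3, taken by gene name from a count table of 58735 genes. RNA sequencing gave their transcript levels in cells that carry the label HepG2, the name of a human liver tumour line. The cells were kept for 24 h in serum-free medium without coumarin (0 µM) or with coumarin, a plant benzopyrone, at 0.001, 0.01, 0.1, 1, 10 or 100 µM. No group had any other agent or allele in the labels. Each of the 7 groups had 3 biological replicates according to the series' design text, which makes 21 libraries. The libraries were made from RNA selected on poly(dT) beads.

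Aldo-keto reductases use NADPH to turn aldehydes and ketones into alcohols. AKR1A1 (aldehyde reductase) acts on many aldehydes and AKR1B1 (aldose reductase) turns glucose into sorbitol in the polyol pathway. AKR1B10 reduces retinal and other aldehydes. The AKR1C enzymes act on steroids and prostaglandins: AKR1C1 inactivates progesterone, AKR1C2 inactivates dihydrotestosterone, and AKR1C3 makes testosterone and F-series prostaglandins. Several of these genes are known targets of NRF2, the transcription factor of the oxidant and electrophile response. One route of coumarin metabolism gives a reactive aldehyde that can be oxidised by aldehyde dehydrogenases or reduced to an alcohol.

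The 3 AKR1C genes lie side by side on chromosome 10 and the files' coordinates are those of GRCh38. AKR1C1 (ENSG00000187134) spans chr10:4963253-4983283 on the plus strand, AKR1C2 (ENSG00000151632) chr10:4987400-5018031 on the minus strand, and AKR1C3 (ENSG00000196139) chr10:5035354-5107686 on the plus strand. AKR1B1 (ENSG00000085662, chr7:134442350-134459284, minus) and AKR1B10 (ENSG00000198074, chr7:134527592-134541408, plus) are neighbours on chromosome 7. AKR1A1 (ENSG00000117448) lies alone at chr1:45550543-45570049 on the plus strand.

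The AKR1C genes are near copies, so a read from one can fit another. Over the 972 coding bases of each (GENCODE release 29, principal transcript), AKR1C1 and AKR1C2 were 98.05% identical with 19 mismatches. AKR1C3 was 91.46% identical to AKR1C1 and 91.05% identical to AKR1C2. The coding bases 73 to 162 hold the densest differences between AKR1C1 and AKR1C2 and are shown for that reason, 5′ to 3′. Capitals mark bases that differ from AKR1C1.
AKR1C1: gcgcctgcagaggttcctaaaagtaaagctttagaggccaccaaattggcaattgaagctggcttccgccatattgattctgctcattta
AKR1C2: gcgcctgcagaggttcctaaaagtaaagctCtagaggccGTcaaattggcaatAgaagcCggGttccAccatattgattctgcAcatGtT
AKR1C3: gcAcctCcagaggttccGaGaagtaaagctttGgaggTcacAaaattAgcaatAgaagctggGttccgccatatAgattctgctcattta

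In this stretch AKR1C2 differed from AKR1C1 at 10 of 90 bases and AKR1C3 at 11. Other stretches are the same in both: the longest run identical in the coding sequences of AKR1C1 and AKR1C2 was 189 bases. Of all windows of 100 bases in the principal transcripts, 17.44% of those of AKR1C1, 32.87% of those of AKR1C2 and 4.977% of those of AKR1C3 also occurred in another AKR1 gene. No such window of AKR1A1 or AKR1B1 did, and 2.012% of those of AKR1B10 did. With windows of 50 bases the shares were 28.68% for AKR1C1, 52.17% for AKR1C2, 12.06% for AKR1C3, 4.779% for AKR1B1 (shared with its pseudogenes), 16.61% for AKR1B10 and 0 for AKR1A1. The sources used here do not give the read length, the strand setting or the handling of reads that fit several genes. The split of reads among AKR1C1, AKR1C2 and AKR1C3 is therefore uncertain, and their sum is given beside them. Overlapping genes on the opposite strand held few counts: 3 to 14 per library for AL391427.1 and 0 or 1 for an RF00096 copy within AKR1C2, and 0 for an RF00096 copy within AKR1C3.

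AKR1C1 and AKR1C2 are alike before their start sites too. The stretches are shown because the AKR1C genes were lower at 100 µM, and any part of these sequences in that change was not tested. RefSeq windows of 250 bases before to 50 bases after each start site (GRCh38.p14) were matched for 5 of the 6 genes, with 7 windows in all, and none for AKR1B10. The stretches shown end at the RefSeq start site or at the first overlap with an exon of the gene in GENCODE release 29, and hold no such exon. They lie at chr10:4963165-4963252 (plus strand) for AKR1C1, chr10:5004024-5004107 (minus strand) for AKR1C2 and chr10:5048531-5048780 (plus strand) for AKR1C3. Those of AKR1C2 and AKR1C3 lie inside the gene as the files give it, which starts further upstream, and that of AKR1C1 lies just before it. In the first pair, capitals mark the 84 bases shared by both. In AKR1C3 they mark the letters of a CCAAT box and of a TATA box, both read on the other strand.
AKR1C1: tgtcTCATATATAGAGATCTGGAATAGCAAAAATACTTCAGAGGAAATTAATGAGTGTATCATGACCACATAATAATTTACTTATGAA
AKR1C2: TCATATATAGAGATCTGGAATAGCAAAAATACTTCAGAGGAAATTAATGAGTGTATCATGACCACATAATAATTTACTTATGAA
AKR1C3: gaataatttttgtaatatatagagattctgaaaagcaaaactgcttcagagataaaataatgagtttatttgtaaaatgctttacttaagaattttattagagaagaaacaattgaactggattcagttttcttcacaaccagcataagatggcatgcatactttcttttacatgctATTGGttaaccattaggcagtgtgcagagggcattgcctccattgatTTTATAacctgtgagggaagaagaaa

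Aligned over the 250 bases before the start site, AKR1C2 matched AKR1C1 at 99.59% of ungapped positions (1 mismatch, 8 gap bases). The AKR1C3 windows matched at 75.93% and 78.63%. The CCAAT box (CCAAT, either strand) was present in all 4 AKR1C windows, between 73 and 86 bases before the start site. It was also in both AKR1B1 windows, so in 6 of the 7, and in 34.61% of all 35116 windows. The AKR1B1 windows overlap and hold the same CCAAT site, 98 bases before the start site of the first and 41 bases after that of the second. The TATA box (TATAAA) was found in 1 AKR1C3 window and in 11.53% of all. The core of the antioxidant response element bound by NRF2 (TGACNNNGC) was found in 0 of the 7 windows and in 13.35% of all, and TGATGNAA (the C/EBP-ATF element) in 0 of 7 and 3.617%. The xenobiotic response element core (GCGTG) was found in both AKR1B1 windows, which overlap, and in 36.54% of all. These matches describe letters in these windows only. No 2 of these motifs overlapped in the AKR1C windows.

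Levels are given as CPM, counts divided by a library size that TMM factors correct for differences in composition. Gene counts totalled 26984563 to 43375429 per library, and 16699 genes were tested. The biological coefficient of variation within groups, common to all genes in edgeR, was 4.49%. No 2 libraries held identical values. Counts, lengths and deposited FPKM together give the total that each library was scaled by, and the part of it beyond the gene counts was 3.91%, 8.03% and 8.17% in the 3 control libraries and 1.04% to 5.43% in the others, so control replicates 2 and 3 stood apart. The markers went against a hepatocyte identity of the cells labelled HepG2. ALB, TTR and FGB were at 0 counts in all 21 libraries, and none of the other 5 hepatocyte markers had more than 3 counts in a library. The keratin genes KRT8 and KRT18 had means of 2498 and 1198 CPM, KRT7 had 751, and the mesenchymal genes COL3A1 and VIM had 1212 and 312. The cells are called by their label here.

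All 3 measured AKR1C genes were lower at 100 µM than in every other group, while AKR1A1 and AKR1B1 were not called different at any dose. AKR1C1 fell 1.82-fold, AKR1C2 1.54-fold and AKR1C3 1.56-fold at 100 µM against 0 µM. AKR1C1 was also lower at each of the 5 lower doses, by 1.11-fold to 1.18-fold. AKR1B10 was close to absent throughout.

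**Figure D1:**
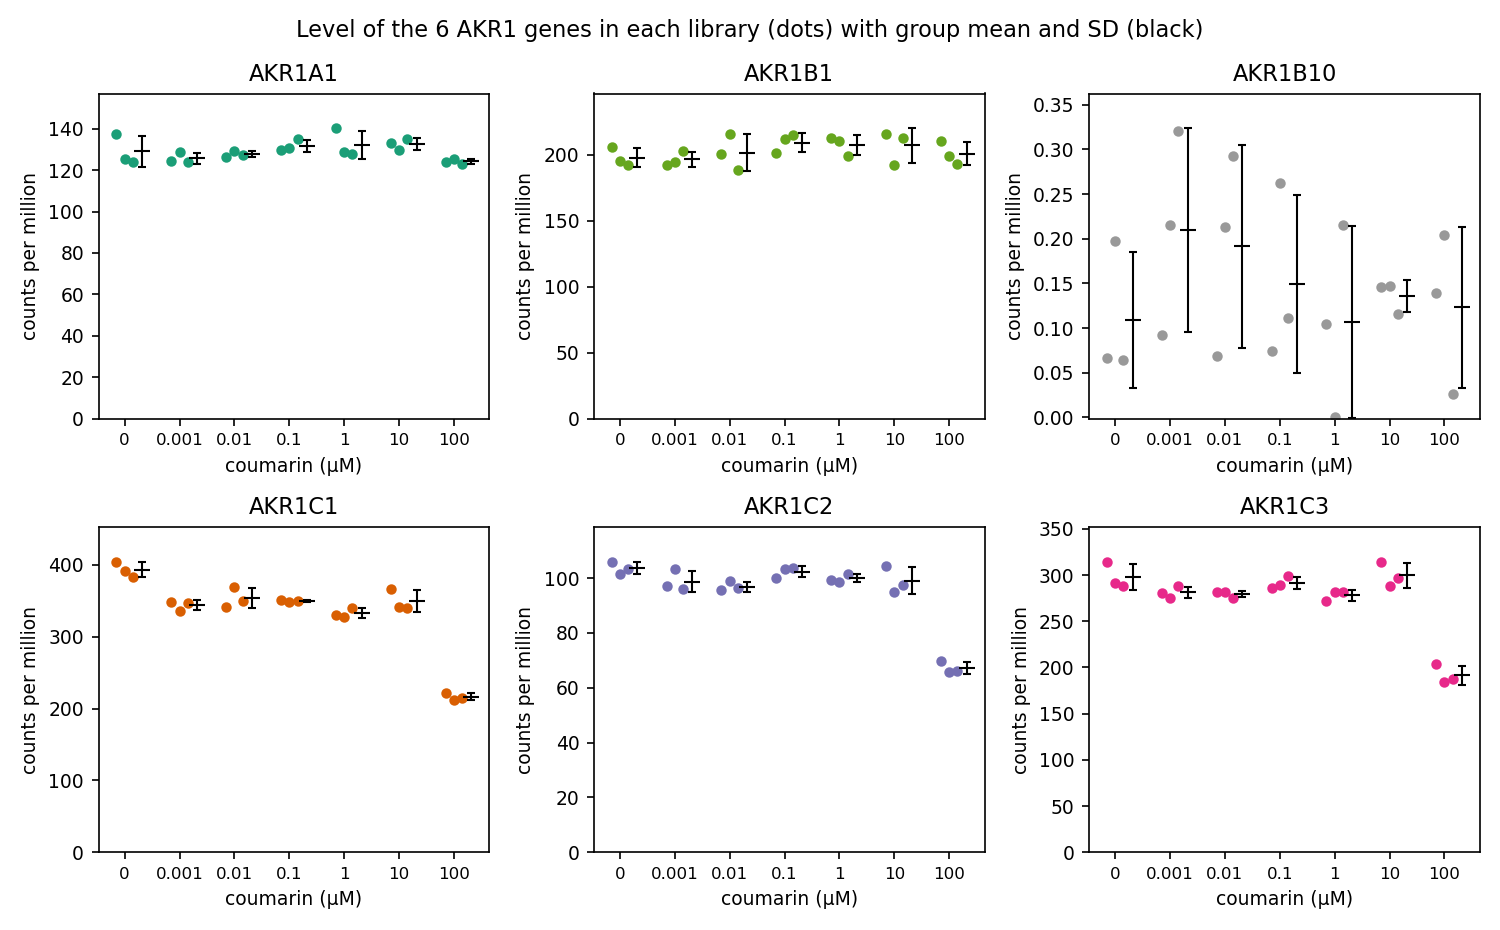
Level of each gene in CPM (vertical axis, a scale per panel) against the coumarin dose (horizontal axis); dots are the 3 libraries of a group, and the black mark and bar are their mean and SD. The dots of AKR1C1, AKR1C2 and AKR1C3 at 100 µM lie below all other dots of the same gene, and those of AKR1A1, AKR1B1 and AKR1B10 do not stand apart.

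AKR1C1 was at 404.0, 390.7 and 383.5 CPM in the control libraries and at 221.7, 212.3 and 214.9 CPM at 100 µM. The groups did not overlap, and the 3 libraries at 100 µM were below all 18 others, whose lowest was at 327.9 CPM. The means were 392.7 ± 10.4 and 216.3 ± 4.85 CPM (SD, n = 3). AKR1C1 fell by 0.86 on the log2 scale (SE 0.04), with an adjusted p of 1.78e-20 (edgeR's quasi-likelihood test, two-sided, Benjamini-Hochberg over 16699 genes). By p-value it ranked 26 among the genes tested.

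AKR1C2 was at 105.9, 101.7 and 103.2 CPM in control and at 69.8, 65.7 and 66.2 CPM at 100 µM. Its lowest value in the other 18 libraries was 94.99 CPM, so the groups did not overlap here either. It fell by 0.62 on the log2 scale (SE 0.04, edgeR adjusted p 7.17e-15).

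AKR1C3 was at 314.3, 291.1 and 288.3 CPM in control and at 203.3, 183.8 and 187.2 CPM at 100 µM. All 3 treated libraries were again below the other 18, which reached down to 271.5 CPM. It fell by 0.64 on the log2 scale (SE 0.04, edgeR adjusted p 2.06e-15).

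Thus 3 of the 5 tested members fell at 100 µM, and 0 rose. These 3 are near copies with an uncertain split of reads, so they are not independent of one another. Of all genes tested in the same comparison, 12.9% were called lower, 14.4% higher and 27.3% either way. How many of all genes lay below every other library at 100 µM was not counted. The median change of all genes was -0.01 on the log2 scale, and that of the called genes was 0.27 in size. In these bulk samples, fewer cells that use a gene and less of its RNA per cell cannot be told apart. Summed levels of marker lists also moved with 100 µM: the 6 epithelial markers held 4186 to 4659 CPM in control and 3315 to 3403 CPM at 100 µM, and the 5 mesenchymal markers 1587 to 1674 and 1381 to 1428 CPM. EPCAM, KRT19 and CDH1 were at or near 0 (at most 13 counts), as was COL1A2. The 8 hepatocyte markers summed to at most 0.173 CPM in any library, and the 4 leukocyte and endothelial markers to at most 0.595 CPM. The part of these markers in the AKR1C values was not tested.

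AKR1A1 was at 137.5, 125.4 and 124.1 CPM in control and at 124.0, 125.5 and 123.2 CPM at 100 µM. These groups overlapped. The log2 change was -0.05 (95% interval -0.14 to 0.03, edgeR adjusted p 0.367). Over all 21 libraries the gene stayed between 123.2 and 140.1 CPM.

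AKR1B1 was at 205.6, 195.2 and 192.2 CPM in control and at 210.2, 198.6 and 193.1 CPM at 100 µM. The groups overlapped, with a log2 change of 0.02 (95% interval -0.07 to 0.12, edgeR adjusted p 0.787). Its range over all libraries was 188.0 to 216.0 CPM. The lower ends of the 95% intervals of AKR1A1 and AKR1B1 lie above the changes of all 3 AKR1C genes.

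AKR1B10 had 93 counts in the 21 libraries together, with 0 to 9 in each. It held 2, 6 and 2 counts in control and 4, 6 and 1 at 100 µM, and at 1 µM 1 library had 0 counts, for which 3 counts (0.0902 CPM) is the upper limit. It did not pass the filter on low counts, so edgeR gave no test of its level. At these counts its values spread widely within groups, with an SD of 0.0760 around 0.110 CPM in control (n = 3).

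The 5 lower doses showed a smaller difference in AKR1C1. The gene was at 348.7, 335.5 and 346.7 CPM at 0.001 µM and at 341.3, 368.9 and 350.0 CPM at 0.01 µM. At 0.1 µM it was at 351.5, 348.5 and 350.0 CPM, and at 1 µM at 330.0, 327.9 and 340.3 CPM. At 10 µM it was at 366.6, 341.6 and 339.4 CPM. All 15 libraries of these doses lay below all 3 controls, and all lay above the libraries at 100 µM. The 15 are set against the same 3 controls, and the share of all genes with such a separation was not counted.

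AKR1C1 fell by 0.19 at 0.001 µM, 0.15 at 0.01 µM, 0.17 at 0.1 µM, 0.24 at 1 µM and 0.17 at 10 µM on the log2 scale (SE 0.04 each). The edgeR adjusted p-values were 0.00432, 0.0109, 0.00522, 0.00062 and 0.0097 in that order. At 1 µM the gene ranked 6 by p-value. Of all genes tested, 0.192%, 1.09%, 1.43%, 0.431% and 0.874% were called lower at these doses. AKR1C1 was the 1 member called at each of them, out of 5 tested. The 5 comparisons share the same 3 control libraries, so they are not independent of one another. The value did not step down with dose in this range: at 10 µM against the 12 libraries at 0.001 to 1 µM the log2 change was 0.02 (95% interval -0.04 to 0.08, edgeR adjusted p 0.863).

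Control replicates 2 and 3, with the large part of the FPKM total beyond the gene counts, had the lower AKR1C1 values of the 3 controls. That order rests on 3 libraries, and the part of this difference among controls in the AKR1C1 changes was not tested. With control replicate 1 alone as the reference, which leaves 1 control library, the log2 changes were -0.23, -0.19, -0.21, -0.28 and -0.21 from 0.001 to 10 µM. The spread then comes from the treated groups, and the call at 0.01 µM was lost (adjusted p 0.0524). Leaving out 0.01 µM replicate 1 (log2 change -0.13, adjusted p 0.0609) or replicate 3 (-0.14, 0.0551) also ended that call. In a fit of only the 6 libraries compared, the calls at 0.001 µM (-0.20, 0.0563) and 10 µM (-0.18, 0.0745) were lost. In the fit of all libraries these changes were -0.15 at 0.01 µM, -0.19 at 0.001 µM and -0.17 at 10 µM. Marker sums also differed from control at lower doses: the mesenchymal markers held 1587 to 1674 CPM in control and 1706 to 1831 CPM at 0.001 to 1 µM, above every control. The epithelial markers held 4662 to 4911 CPM at 0.01 to 1 µM, also above every control (4186 to 4659 CPM), and overlapped control at 0.001 and 10 µM. Their part in the AKR1C1 values was not tested.

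AKR1C2 and AKR1C3 were not called at these doses. The group means of AKR1C2 were 96.9 to 102.3 CPM against 103.6 ± 2.16 CPM in control (SD, n = 3), and 11 of 15 libraries lay below all controls. Its log2 changes were between -0.10 and -0.02, with edgeR adjusted p from 0.187 to 0.868. The group means of AKR1C3 were 278.4 to 299.7 CPM against 297.9 ± 14.2 CPM, and 11 of 15 libraries lay below all controls. Its log2 changes were between -0.10 and 0.01, with edgeR adjusted p from 0.204 to 0.947. At 10 µM against the libraries at 0.001 to 1 µM, AKR1C3 was 0.09 higher (95% interval 0.02 to 0.15) and not called (edgeR adjusted p 0.173). The share of all genes with as many libraries below all controls was not counted. For AKR1A1 and AKR1B1 the log2 changes at these doses lay between -0.04 and 0.08, and none was called.

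**Figure D2:**
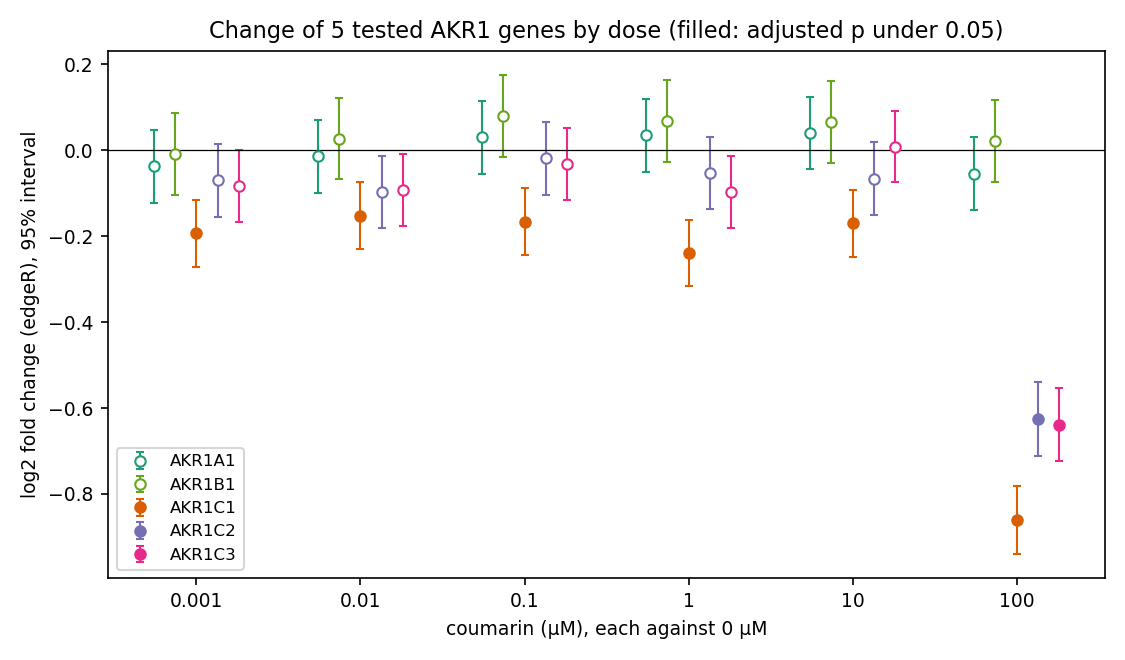
Log2 fold change of the 5 tested genes (vertical axis, edgeR) at each dose against 0 µM (horizontal axis), with 95% intervals; filled points had an adjusted p under 0.05. AKR1C1 is filled at all 6 doses, and AKR1C2 and AKR1C3 at 100 µM only.

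The step from 10 to 100 µM, which does not use the controls, gave the same 3 genes. AKR1C1 fell by 0.69, AKR1C2 by 0.56 and AKR1C3 by 0.65 on the log2 scale (SE 0.04 each). The edgeR adjusted p-values were 3.68e-17, 3.01e-13 and 2.24e-15. Of all genes tested, 10% were called lower and 18.3% either way. AKR1A1 changed by -0.09 (adjusted p 0.117) and AKR1B1 by -0.05 (adjusted p 0.575), and neither was called. Against the 12 libraries at 0.001 to 1 µM, where 16.5% of genes were called lower, AKR1C1 at 100 µM fell by 0.67 (edgeR adjusted p 5.66e-20).

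The test of all 7 groups at once called AKR1C1, AKR1C2 and AKR1C3 (edgeR adjusted p 1.39e-18, 3.39e-14 and 6.74e-15) among 30% of genes called. A slope on log10 dose over the 18 treated libraries was called for AKR1C1, at -0.09 per 10-fold dose (adjusted p 0.0273), and AKR1C2, at -0.07 (0.0421). That of AKR1C3 was -0.07 and missed the threshold (0.0944). Of all genes, 11.5% were called with a falling slope. Without the 100 µM libraries the slopes were -0.00, 0.01 and 0.02 for AKR1C1, AKR1C2 and AKR1C3, and 0 members were called (1 had an unadjusted p under 0.05). The trend therefore rests on that dose.

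Because reads of the copies may be shared, AKR1C1 and AKR1C2 were also summed to 1 row. The sum fell at all 6 doses, by 0.13 to 0.20 at the lower 5 (edgeR adjusted p 0.00281 to 0.025) and by 0.81 at 100 µM (7.52e-20). The sum of all 3 AKR1C genes was 794.3 ± 26.3 CPM in control and 475.0 ± 17.4 CPM at 100 µM (SD, n = 3). It fell at 100 µM by 0.74 (adjusted p 2.25e-18) and at 1 µM by 0.16 (0.0203). At 0.001, 0.01, 0.1 and 10 µM the summed row was not called (adjusted p 0.0669, 0.0508, 0.139 and 0.252). At these 4 doses the call thus held for AKR1C1 alone and for its sum with AKR1C2, and not for the sum of all 3.

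The members' balance was compared within each library as the log2 ratio of the counts of a pair, which needs no scaling between libraries. The 3 libraries at 100 µM were set against the other 18 for all 15 pairs in an exact permutation test (two-sided, 1330 arrangements, smallest possible p 0.0015), adjusted by Benjamini-Hochberg over the 15 pairs. The 6 ratios of AKR1A1 or AKR1B1 to an AKR1C gene were 0.51 to 0.69 higher at 100 µM, each with the smallest possible p (adjusted 0.00322). In each of these 6 the 3 libraries lay above all 18 others. The 6 ratios use the same counts as the calls above, so they are not independent of those calls or of one another. The ratio of AKR1A1 to AKR1B1 differed by -0.05 (adjusted p 0.313), and the 5 pairs with AKR1B10 by 0.25 to 0.38 (adjusted p 0.73 to 0.792), which rest on 0 to 9 AKR1B10 counts per library.

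Set against the other 18 libraries, AKR1C1 was lower at 100 µM relative to both neighbours. Its log2 ratio to AKR1C2 was 0.13 lower at 100 µM (exact permutation p 0.0015, adjusted 0.00322), and its ratio to AKR1C3 was 0.12 lower (p 0.00451, adjusted 0.00846). The ratio of AKR1C2 to AKR1C3 differed by 0.02 (adjusted p 0.73). As shares of the AKR1C counts, AKR1C1 had 49.5% ± 0.425 in control and 45.6% ± 0.647 at 100 µM (SD, n = 3), with means of 46.7% to 48.4% between. AKR1C2 went from 13.05% ± 0.242 to 14.2% ± 0.0664 and AKR1C3 from 37.5% ± 0.549 to 40.3% ± 0.695. Count shares do not correct for gene length. As shares of FPKM, AKR1C1 went from 35.4% to 31.9%, AKR1C2 from 12.7% to 13.5% and AKR1C3 from 51.9% to 54.6%. The gene with the largest share thus differs between the 2 units, and the directions are the same. The mean count ratio of AKR1C1 to AKR1C2 was 3.79 in control, 3.33 to 3.65 at 0.001 to 10 µM and 3.22 at 100 µM, so the treated groups below 100 µM lay between. That of AKR1C1 to AKR1C3 was 1.32 in control, 1.17 at 10 µM (1.14 to 1.19) and 1.13 at 100 µM (1.09 to 1.15), so 10 and 100 µM overlapped. The reference of 18 libraries pools groups whose ratios differ.

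**Figure D3:**
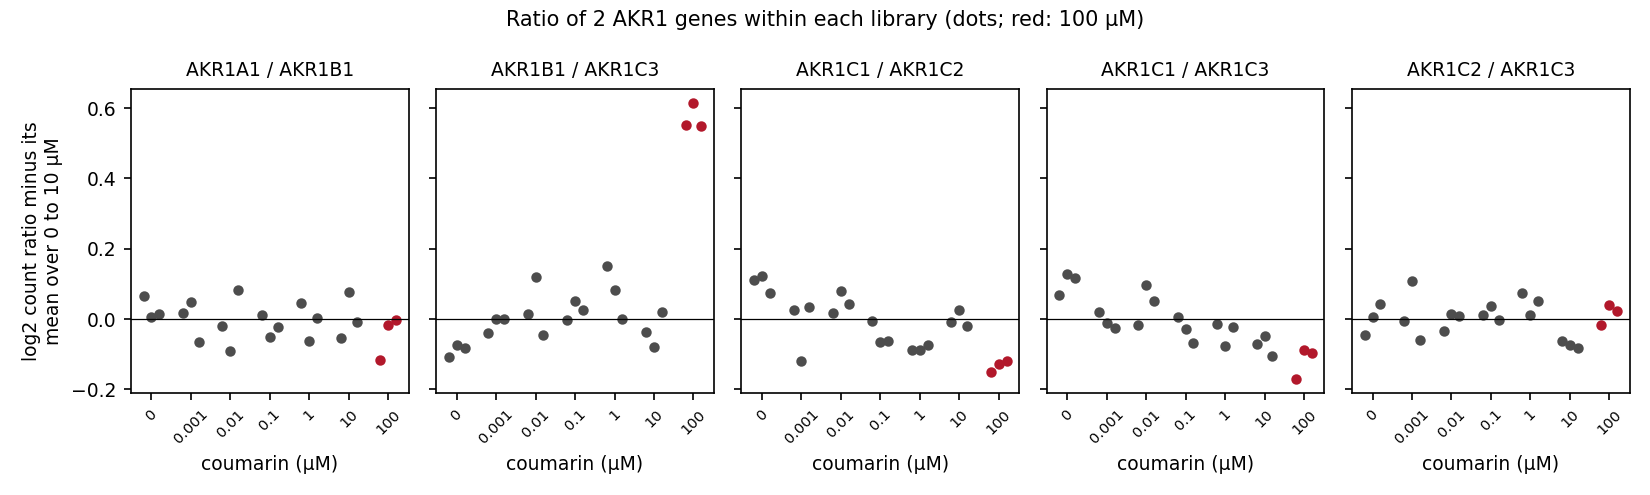
Log2 ratio of the counts of 2 genes within each library (vertical axis), minus its mean over the 18 libraries at 0 to 10 µM, against the coumarin dose (horizontal axis); each dot is a library, and those at 100 µM are red. The ratio of AKR1B1 to AKR1C3 is higher at 100 µM by 0.57 on average, and the 2 ratios of AKR1C1 are lower by 0.13 and 0.12. The ratio of AKR1C1 to AKR1C3 at 100 µM still overlaps the other libraries, and the other 2 panels show no separation.

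Levels of different genes can be set side by side only per length. In deposited FPKM (fragments scaled by gene length and library total), the control order was AKR1C3 at 62.96 ± 3.15, AKR1B1 at 51.7 ± 1.94, AKR1C1 at 42.9 ± 1.22, AKR1A1 at 39.6 ± 2.35, AKR1C2 at 15.4 ± 0.355 and AKR1B10 at 0.0601 ± 0.0416 (SD, n = 3). AKR1C1 and AKR1A1 overlapped in range, and all other neighbours in this order did not. The order depends on the length used: the table gives AKR1C1 a length of 8765 bases against 972 coding bases. Per kilobase of coding sequence, an alternative added after seeing the data, AKR1C1 came first in control at 404.1 CPM and AKR1C3 followed at 306.5. Then came AKR1B1 at 207.8, AKR1A1 at 131.9 and AKR1C2 at 106.6. The counts cover the whole gene, so this measure favours genes with much transcript outside the coding sequence. The principal transcript has 6705 bases in AKR1C1 and 1807 in AKR1C3, each with 972 coding bases.

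The genes whose log2 CPM over the 21 libraries was most like each member's were taken from 9104 other protein-coding genes with a mean of at least 10 CPM. For AKR1C1 they were C11orf86 (Pearson r 0.974), IER3 (0.969) and TINAGL1 (0.966). For AKR1C2 they were VWA5A (0.985), HIBADH (0.978) and PLD1 (0.971), and for AKR1C3 VWA5A (0.966), C11orf86 (0.958) and PLA2R1 (0.949). All of these were themselves lower at 100 µM, with log2 changes of -1.24 for TINAGL1 to -0.38 for HIBADH. For AKR1A1 they were UBE2N (0.838), MAF1 (0.808) and APEH (0.783), and for AKR1B1 ASNA1 (0.856), MAF1 (0.832) and UROD (0.81). The AKR1C genes correlated with each other at 0.966 to 0.974, and at 0.514 to 0.595 over the 18 libraries without 100 µM. Over the 18 libraries below 100 µM the values were 0.70, 0.652 and 0.563 for the 3 genes of AKR1C1, 0.628, 0.821 and 0.647 for those of AKR1C2, and 0.276, 0.492 and -0.0960 for those of AKR1C3, in the order named. For AKR1A1 and AKR1B1 they were 0.744 to 0.851. These values describe points that share libraries and doses, and for the AKR1C genes also sequence.

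Other aldo-keto reductase genes gave no further call. AKR1C4 and AKR1E2 were at 0 counts in all 21 libraries, AKR1D1 (bile acid synthesis) had at most 2 counts and AKR1B15 at most 6. AKR7A2, which reduces succinic semialdehyde, was at 71.1 ± 4.99 CPM in control and 73.1 ± 4.03 CPM at 100 µM (SD, n = 3; log2 change 0.04, edgeR adjusted p 0.581). Of 11 listed genes 6 were tested, among them the potassium channel subunit genes KCNAB1, KCNAB2 and KCNAB3, and 0 rose or fell at 100 µM in edgeR's test (0 with an unadjusted p under 0.05).

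The NRF2 system was mixed at 100 µM. The list counts at this dose stand beside 14.4% of all genes called higher and 12.9% called lower. NFE2L2, which encodes NRF2, changed by -0.12 (edgeR adjusted p 0.0625) and KEAP1, its inhibitor, by -0.04 (0.601), and neither was called. Of 11 tested regulators of NRF2 6 rose (54.5%) and 1 fell (9.09%), with a median of 0.16. NFE2L1 rose by 0.26, the autophagy adaptor gene SQSTM1 by 0.22 and MAFG by 0.21, and MAFF fell by 0.45. Of 26 tested NRF2 targets outside the family 8 rose and 8 fell (30.8% each), with a median of 0.06. The quinone reductase gene NQO1 fell by 0.17 (SE 0.04, adjusted p 0.00107), from 691.7 ± 36.2 to 614.1 ± 14.6 CPM (SD, n = 3). The transporter gene ABCC3 fell by 0.69, while the cystine transporter gene SLC7A11 rose by 0.45, the epoxide hydrolase gene EPHX1 by 0.32 and SRXN1 (sulfiredoxin) by 0.53.

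Aldehyde dehydrogenases, which oxidise the aldehydes that AKRs reduce, had 7 of 14 tested members fall (50%, against 12.9% of all genes) and 2 rise (14.3%, against 14.4%) at 100 µM, with a median of -0.08. ALDH3A1 fell by 1.70 on the log2 scale, with 46.9 ± 4.26 CPM in control and 14.4 ± 0.624 CPM after treatment (SD, n = 3) and an edgeR adjusted p of 9.55e-24. ALDH3B1 fell by 0.73 and ALDH1A3 (retinal oxidation) by 0.44, and ALDH2, the mitochondrial enzyme of acetaldehyde oxidation, rose by 0.44. The other riser, ALDH1L2, named after its values were seen, went up by 1.16 from 0.470 CPM.

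Short-chain and other carbonyl reductases had 6 of 29 tested members rise (20.7%, against 14.4% of all genes) and 4 fall (13.8%, against 12.9%) at 100 µM, with a median of -0.04. DHRS3, which reduces retinal, fell by 1.16 (edgeR adjusted p 7.66e-21). The other 3 that fell, named after their values were seen, were PTGR2 by 0.51, SDR16C5 by 0.32 and HSD17B7 by 0.20. SORD, which follows AKR1B1 in the polyol pathway, rose by 0.31, from 67.2 ± 2.14 to 83.2 ± 1.05 CPM (SD, n = 3; adjusted p 1.93e-07). HSD17B10 rose by 0.29 and RDH11 by 0.20.

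Among genes of prostaglandin synthesis and clearance, 4 of 10 tested fell (40%, against 12.9% of all genes) and 3 rose (30%, against 14.4%) at 100 µM, with a median of 0.06. The cyclooxygenase gene PTGS1 fell by 1.43 (edgeR adjusted p 7.66e-21), the prostaglandin dehydrogenase gene HPGD by 0.78 and the synthase gene PTGES by 0.34, and PTGES2 rose by 0.23. The fourth that fell was the other cyclooxygenase gene PTGS2, by 0.39. The transporter gene SLCO2A1 rose by 1.26 at a low level (0.668 CPM in control and 1.61 CPM at 100 µM), and PTGR1 rose by 0.13. These 3 were named after their values were seen. Genes that supply NADPH, the cofactor of AKRs, had 5 of 13 tested rise (38.5%, against 14.4% of all genes) and 2 fall (15.4%, against 12.9%), with a median of 0.05. MTHFD2 rose by 0.53, IDH1 by 0.21 and the pentose phosphate gene PGD by 0.19, and TALDO1 fell by 0.18. The remaining calls, named after their values were seen, were ME1 (0.19), MTHFD1 (0.14) and TKT (-0.12). PGD, TALDO1, ME1 and TKT are in the NRF2 target list as well, and PTGR1 is also listed as a carbonyl reductase.

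**Figure D4:**
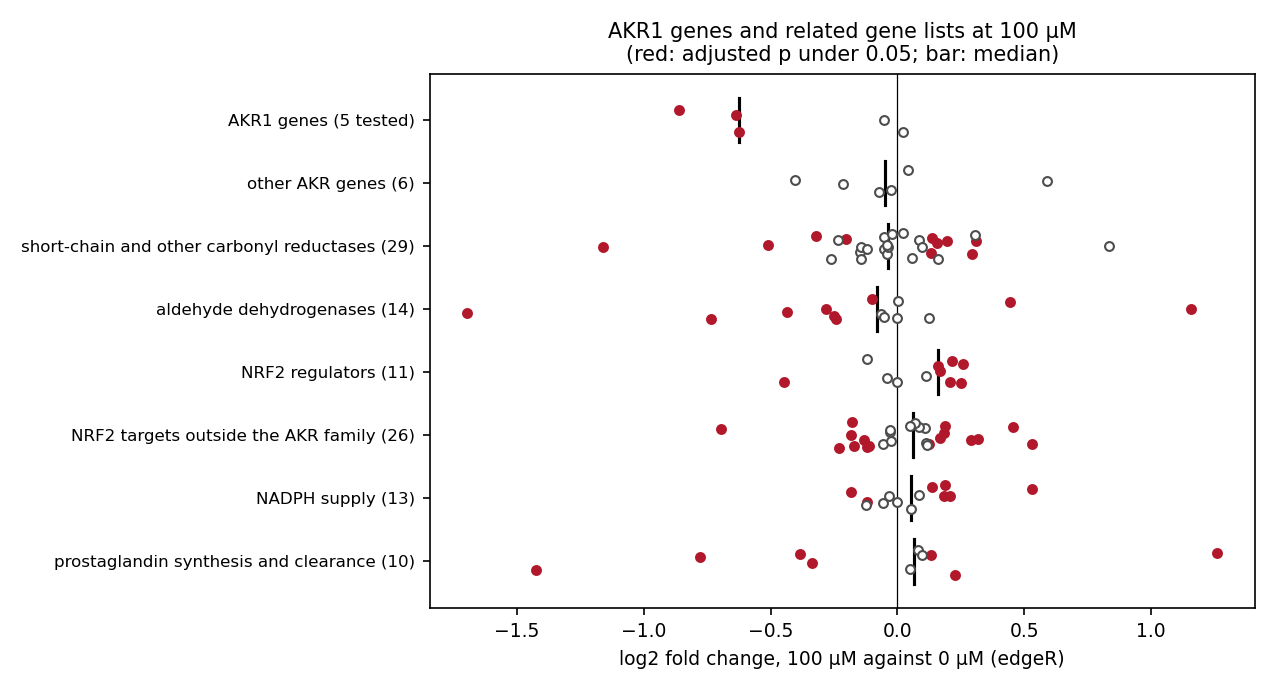
Log2 fold change at 100 µM against 0 µM (horizontal axis, edgeR) of the 5 tested AKR1 genes and of the tested genes of 7 related lists (rows; number tested in brackets); red points had an adjusted p under 0.05 and the black bar is the median. The AKR1C genes are at -0.86, -0.64 and -0.62, and the 7 list medians lie between -0.08 and 0.16.

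At 10 µM 2.62% of all genes were called. The shares were 10.3% of the 29 carbonyl reductases, 14.3% of the 14 aldehyde dehydrogenases, 7.69% of the 26 NRF2 targets and 10% of the 10 prostaglandin genes, which is 3, 2, 2 and 1 genes. Of the aldehyde dehydrogenases ALDH3A1 fell by 0.31 and ALDH3B1 by 0.18, of the carbonyl reductases DHRS3 fell by 0.33 while SORD rose by 0.19 and RDH11 by 0.16, and PTGS1 fell by 0.36. Of the NRF2 targets ABCC3 fell by 0.34 and FTH1, named after its value was seen, by 0.17. In the lists of other AKR genes, NRF2 regulators and NADPH supply 0 genes were called by edgeR, and 0, 2 and 3 had an unadjusted p under 0.05.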

How the data were processed

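The authors deposited raw counts per gene as whole numbers, and FPKM in a second deposited table. The submitters' processing notes name HISAT2, DESeq2 and GRCh38 and give no versions. The counter, its strand setting and its handling of reads that fit several genes: not given in the sources used here. Groups follow the dose in the labels. The counts went through edgeR 4.0.16 (R 4.3.3) with filterByExpr, scaling by TMM and quasi-likelihood F tests in 1 fit of all 21 libraries (14 residual degrees of freedom, 16699 genes; 16522 genes in the 18 treated libraries for the slope on log10 dose). P-values were adjusted by Benjamini-Hochberg over all genes tested, and those under 0.05 make a call ("rose", "fell"). They are two-sided apart from the test of 7 groups. Ratios of counts (0.5 added to each) were tested by exact permutation in scipy 1.17.1.

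The members, the gene lists and the rules were chosen with earlier results of these data known. Named from a list were up to 4 genes with a mean of at least 1 CPM and the smallest p at 100 µM, and AKR1B15, AKR1C4, AKR1D1, AKR1E2, AKR7A2, NFE2L2, KEAP1 and NQO1 whatever their values; genes outside this rule are marked. Genes alike to a member were the 3 with the highest Pearson r. Alternatives were RLE and upper-quartile scaling, no filter, 1 CPM in 3 libraries, DESeq2 1.42.0, limma 3.58.1 on the log2 scale of deposited FPKM (1 or 0.1 added), the replicate number as a block, a threshold of 0.01, other references, the dose rank, summed paralogs and leaving out each library. With totals of 26984563 to 43375429 counts, the limit behind a 0 is 3 counts. It covers counting error only, because PCR copies are not separate molecules. Simulated data with known changes served to test the scripts.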

Additional observations from a re-analysis of the deposited data

How the results depend on the processing

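Of 672 values computed under alternatives for 53 results, 596 counted as kept. A change, slope or ratio had to keep its direction and its side of the threshold. A count of calls only had to stay close, so 3 in place of 4 at 0.001 to 1 µM counted as kept. Shares had to stay within their SD, and ranks had to be the same. At 100 µM against 0 µM and against 10 µM, 3 members were called under all 18 and all 16 alternatives, and the test of 7 groups called 3 under all 30. The log2 change at 100 µM ranged from -0.90 to -0.67 for AKR1C1, -0.81 to -0.57 for AKR1C2 and -0.74 to -0.56 for AKR1C3, summed rows included. At 10 µM the count of 1 became 0 in a fit of only the groups compared and with 0.001 to 1 µM as the reference. In each, 1 member had an unadjusted p under 0.05. Against 0.001 to 1 µM that member was AKR1C3, which was higher by 0.0855 (edgeR unadjusted p 0.0123, adjusted 0.173). AKR1C1 turned to 0.0176 there. The trend called 2 members; it called 0 at a threshold of 0.01, with no filter and without 100 µM, where AKR1C2 (0.00527) and AKR1C3 (0.0183) turned, and 0 to 3 as each library was left out in turn (0 without any 1 of the 100 µM libraries). The cause was not tested.

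The other values that turned sign were small and not called: AKR1B1 at 100 µM with upper-quartile factors (-0.0113), control replicate 1 alone (-0.0357) or 0.001 to 1 µM as the reference (-0.0210), with -0.0209 (without 100 µM replicate 1) to 0.0506 as libraries were left out; AKR1A1 at 10 µM with control replicate 1 alone (-0.0521), and its slope with -0.000495 (without 0.001 µM replicate 3) to 0.00697; AKR1C3 at 10 µM with upper-quartile factors (-0.0210), control replicate 1 alone (-0.0689) or as the summed row (-0.0867), with -0.0323 (without 10 µM replicate 1) to 0.0495 as libraries were left out; and the ratio of AKR1C2 to AKR1C3 against 12 libraries (-0.00257).

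Replicate numbers did not pair the libraries: deviations of same-numbered libraries correlated at -0.139 to 0.127, 1 of 63 pairs was over 0.1, and a library correlated best with its own number in 33 of 126 cases. With the replicate block the trend called 1 member and all other counts were as before. Depth limits AKR1B10 most.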
